A study of Saccharomyces cerevisiae with 12 samples.

Results

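The 7 genes described here encode the enzymes that carry acetaldehyde to acetate and on to acetyl-CoA in budding yeast: the aldehyde dehydrogenases ALD2, ALD3, ALD4, ALD5 and ALD6 and the acetyl-CoA synthetases ACS1 and ACS2. They were taken by name from the table of probe sets, where each of the 7 has 1 probe set of its own, out of 5449 named genes. They belong together by function, and the group was chosen by function and selected on the alachlor log2 changes of some of its genes, already known from these same arrays. The changes with alachlor are therefore given as values with their errors and no p-value. Total RNA was read on 12 Affymetrix Yeast Genome 2.0 arrays, each giving 1 fluorescence intensity per probe set on a linear scale. The yeast was BY4741, a haploid Saccharomyces cerevisiae strain (MATa) used in many laboratories that lacks LEU2, MET17, URA3 and part of HIS3, and every group carries these deletions. Exponentially growing cultures were held for 2 h at 30 °C in minimal medium with or without alachlor, a chloroacetanilide herbicide.

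There were 4 groups, each of 3 biological replicates. The lower dose, 110 mg/L alachlor, is what the submitters call the LOEC, the lowest concentration with an observed effect, and it was set against the LOEC controls without alachlor. The higher dose, 200 mg/L, is called the IC20, a concentration of partial growth inhibition, and it was set against the IC20 controls, a separate set of untreated cultures. Each dose was its own experiment, so dose and experiment cannot be told apart. All groups come from one strain.

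In yeast growing on glucose most pyruvate is decarboxylated to acetaldehyde, the bulk of which is reduced to ethanol. The remainder is oxidized to acetate by aldehyde dehydrogenases in the cytosol and the mitochondria, and acetyl-CoA synthetases spend ATP to join the acetate to coenzyme A. This bypass of pyruvate dehydrogenase is the main source of cytosolic acetyl-CoA for lipids, sterols and histone acetylation, and its NADP-dependent dehydrogenases are also a source of NADPH.

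ALD6 and ALD4 read at 0.675 to 0.708 of their control levels at both doses, ALD2 at 0.858 to 0.882, and ALD5 at 0.931 at 110 mg/L and 0.832 at 200 mg/L. ALD3 was dim and variable, and ACS1 and ACS2 overlapped with their controls at both doses. For ALD2, ALD4, ALD5 and ALD6 all 6 alachlor arrays read below all 6 control arrays, a separation found in 3.40% of the 5449 genes. Within a single experiment 12.2% of all genes at 110 mg/L and 14.5% at 200 mg/L had all 3 alachlor arrays below all 3 controls. The share is given for scale, because the 7 genes were chosen with these values known. RNA of whole cultures was measured, so fewer cells that express a gene and less RNA per cell cannot be told apart.

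**Figure D1:**
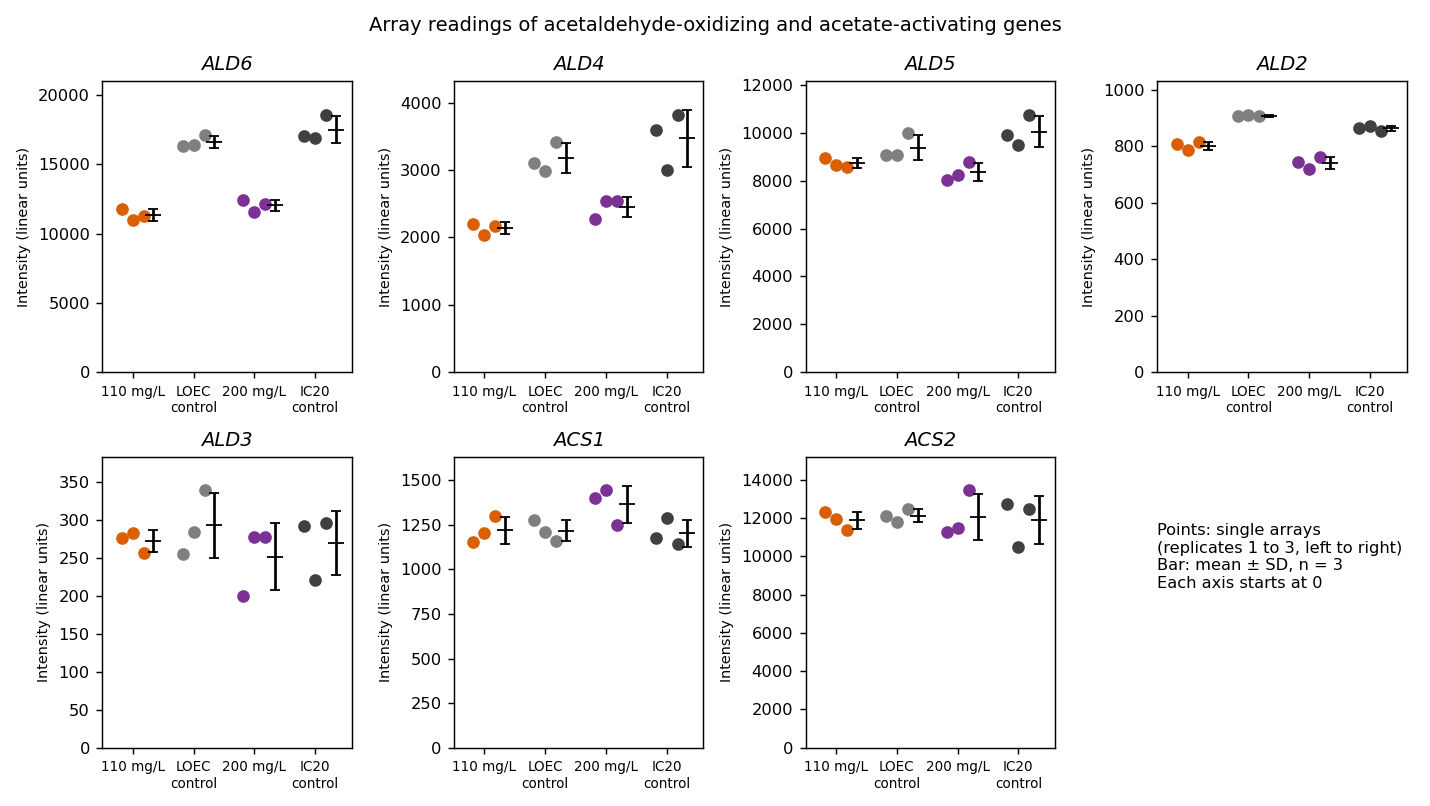
Intensity (linear units, axes starting at 0) of the 7 genes on each of the 12 arrays; points are single arrays, bars the mean ± SD of 3. ALD6, ALD4, ALD5 and ALD2 read lower on the alachlor arrays of both experiments than on any control array (ALD6 between 10967 and 12394, against 16324 to 18593), while ALD3, ACS1 and ACS2 overlap.

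ALD6 (YPL061W) encodes the constitutive cytosolic aldehyde dehydrogenase, which uses NADP and makes most of the acetate of glucose-grown cells. Its probe set read 11796, 10967 and 11235 at 110 mg/L, against 16324, 16375 and 17086 in the LOEC controls. The 2 groups did not overlap, and the 110 mg/L arrays stood well clear of the controls. The log2 change was -0.55 (SE 0.050, 95% interval -0.66 to -0.44), or 0.683 of the control level. At 200 mg/L it read 12394, 11587 and 12098, against 17059, 16874 and 18593 in the IC20 controls. Again no alachlor array reached a control array, and the log2 change of -0.54 (SE 0.050, 95% interval -0.65 to -0.43) left 0.687 of the control level. Group means were 11333 ± 423 at 110 mg/L against 16595 ± 426 in the LOEC controls, and 12026 ± 408 at 200 mg/L against 17508 ± 944 in the IC20 controls (SD, n = 3 each).

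ALD4 (YOR374W) encodes the main mitochondrial aldehyde dehydrogenase, which accepts both NAD and NADP and is repressed by glucose. It read 2206, 2043 and 2175 at 110 mg/L, against 3110, 2991 and 3426 in the LOEC controls. The alachlor arrays all lay below the controls. That is a log2 change of -0.57 (SE 0.0877, 95% interval -0.76 to -0.37), or 0.675 of the control level. At 200 mg/L it read 2276, 2541 and 2538, against 3591, 3008 and 3827 in the IC20 controls. The lowest control, IC20 control array 2, was still above the highest alachlor array. The change there was -0.50 (log2) (SE 0.0877, 95% interval -0.69 to -0.30), or 0.708 of the control level. The IC20 controls spread most, at 3475 ± 422 (SD, n = 3), and without IC20 control array 2 the log2 change at 200 mg/L was -0.60. Over all single arrays left out, the ALD4 change at 200 mg/L ranged from -0.60 to -0.42.

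ALD5 (YER073W) encodes a minor mitochondrial aldehyde dehydrogenase that uses NADP. It read 8963, 8658 and 8591 at 110 mg/L, against 9095, 9095 and 9987 in the LOEC controls. The groups did not overlap, but the highest alachlor array lay just under the lowest controls. ALD5 had a log2 change of -0.10 (SE 0.0587), with a 95% interval of -0.23 to 0.027 that includes 0. In the higher-dose arrays it read 8042, 8261 and 8786, against 9922, 9477 and 10774 in the IC20 controls. Here the gap between the groups was wider, with a log2 change of -0.27 (SE 0.0587, 95% interval -0.39 to -0.14), or 0.832 of the control level.

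ALD2 (YMR170C) and ALD3 (YMR169C) are neighbours on the chromosome and encode closely related cytosolic enzymes that use NAD, are known as stress-induced genes, and also make beta-alanine for pantothenate synthesis. ALD2 read 806, 786 and 814 at 110 mg/L, against 907, 913 and 906 in the LOEC controls. The controls were tight, at 909 ± 3.39 (SD, n = 3), and lay above every alachlor array. Its log2 change was -0.18 (SE 0.0359, 95% interval -0.26 to -0.10), or 0.882 of the control level. On the 200 mg/L arrays it read 744, 718 and 762, against 866, 871 and 853 in the IC20 controls. The groups were again separate, with a log2 change of -0.22 (SE 0.0359, 95% interval -0.30 to -0.14), or 0.858 of the control level. These changes are small, and the 4 group means, lowest first, were 741 (200 mg/L), 802 (110 mg/L), 863 (IC20 controls) and 909 (LOEC controls).

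ALD3 read 277, 284 and 257 at 110 mg/L, against 255, 285 and 340 in the LOEC controls. It read 201, 278 and 278 at 200 mg/L, against 292, 222 and 296 in the IC20 controls. The groups overlapped in both experiments. The deleted loci LEU2, MET17 and URA3 read up to 228.8, 165.4 and 47.2 on these arrays. The highest of these readings, that of LEU2, is used here as the level of the deleted loci. ALD3 read at or below 228.8 on 1 array at 200 mg/L and 1 IC20 control array. The log2 changes were -0.096 at 110 mg/L (SE 0.152, 95% interval -0.43 to 0.24) and -0.10 at 200 mg/L (SE 0.152, 95% interval -0.44 to 0.23). With intervals this wide a change of the size of that in ALD2 was not detectable. Neither value shows that ALD3 and ALD2 behaved alike or unlike.

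ACS2 (YLR153C) encodes the acetyl-CoA synthetase that cells need on glucose. It read 12295, 11957 and 11386 at 110 mg/L, against 12093, 11783 and 12481 in the LOEC controls. It read 11264, 11482 and 13456 at 200 mg/L, against 12750, 10477 and 12491 in the IC20 controls. The groups overlapped at both doses, with more spread in the IC20 experiment. The log2 changes were -0.029 at 110 mg/L (SE 0.0838, 95% interval -0.21 to 0.16) and 0.020 at 200 mg/L (SE 0.0838, 95% interval -0.16 to 0.21). The fit pools the spread of all 4 groups, so the SE is the same at both doses. ACS2 had a log2 SD of 0.0561 at 110 mg/L and 0.0415 in the LOEC controls. It was 0.141 at 200 mg/L and 0.156 in the IC20 controls. For ACS2 the shared SE therefore understates the spread at 200 mg/L and overstates that at 110 mg/L. The same holds for ALD4, with log2 SDs of 0.0588 (110 mg/L), 0.101 (LOEC controls), 0.0915 (200 mg/L) and 0.18 (IC20 controls). Over all genes the median log2 SD was 0.0566 at 110 mg/L and 0.0559 in the LOEC controls. It was 0.0947 at 200 mg/L and 0.0823 in the IC20 controls. The 4 group means of ACS2 lay between 11879 and 12119, closer together than the arrays of either IC20 experiment group. The sign of so small a value turns with the scaling, and ACS2 had -0.0038 at 200 mg/L after median centring.

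ACS1 (YAL054C) encodes the isozyme that is repressed by glucose and used on acetate and ethanol. It read 1151, 1207 and 1298 at 110 mg/L, against 1277, 1213 and 1160 in the LOEC controls, with full overlap. The log2 change was 0.0022 (SE 0.0706, 95% interval -0.15 to 0.16). On the 200 mg/L arrays it read 1400, 1445 and 1250, against 1177, 1288 and 1143 in the IC20 controls. One alachlor array, number 3, lay among the controls. The log2 change was 0.18 (SE 0.0706, 95% interval 0.026 to 0.34). Without 200 mg/L array 3 it was 0.24, and over all single arrays left out it ranged from 0.14 to 0.24.

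**Figure D2:**
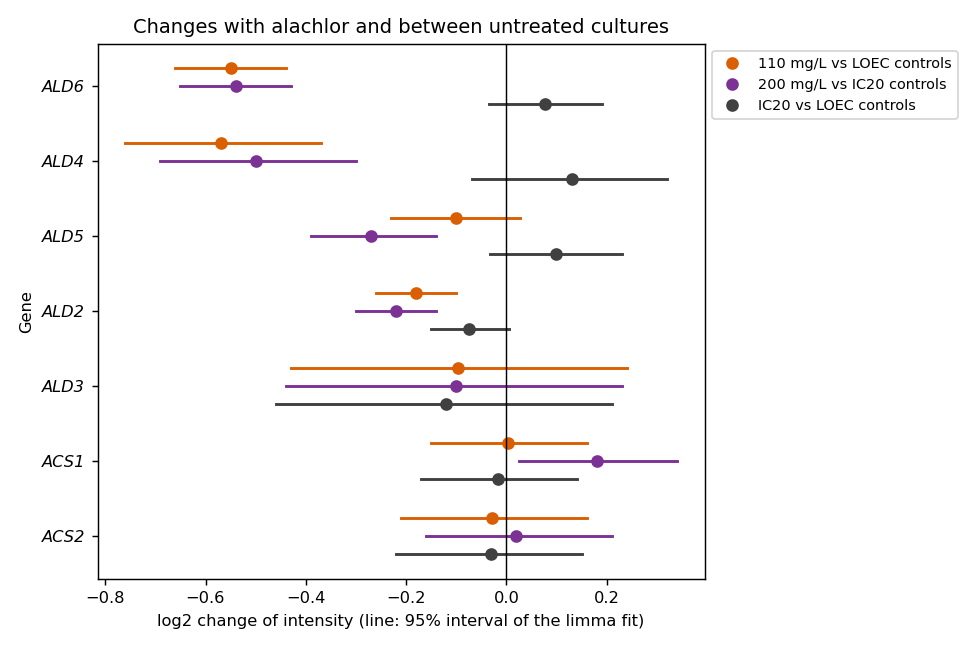
log2 change of intensity for the 7 genes (points) with the 95% interval of the limma fit (lines), at 110 mg/L, at 200 mg/L and between the untreated cultures of both experiments. ALD6 and ALD4 lie near -0.5 at both doses, ACS1 and ACS2 near or above 0, and the intervals between untreated cultures all include 0.

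Each gene was fitted with limma over all 5449 genes, and a gene passes the call at a Benjamini-Hochberg adjusted p under 0.05. At 110 mg/L the call took in 3 of the 7 genes, ALD2, ALD4 and ALD6, all lower, where 1.21% of all genes were called lower and 3.05% higher. At 200 mg/L it took in 4, ALD2, ALD4, ALD5 and ALD6, all lower, where 7.80% of all genes were called lower and 10.0% higher. These counts describe the choice of the genes and are not evidence for it. The median log2 change of the 7 was -0.10 at 110 mg/L and -0.22 at 200 mg/L, beside medians of 0.00525 and 0.000213 over all genes. Only 16 of 5449 genes had a lower change than ALD4 at 110 mg/L and 17 a lower one than ALD6. At 200 mg/L, 68 genes had a lower change than ALD4 and 52 a lower one than ALD6. The balance of all calls moved with the scaling of the arrays. At 110 mg/L 166 genes were called higher and 66 lower, against 149 and 94 when arrays were quantile normalized and 126 and 94 when they were centred on their medians. At 200 mg/L 546 were called higher and 425 lower, against 490 and 497, and 462 and 547. The same members were called under both scalings. Without LOEC control array 1 or 2, or 110 mg/L array 1, 2 or 3, the number of genes called at 110 mg/L was 133, 113, 117, 154 or 135, against 232 with all arrays.

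Of these calls 2 rested on the setting. The call of ALD2 at 110 mg/L was lost under 6 of 22 alternatives, among them leaving out array 1 or array 2 of the LOEC controls or array 1 or array 2 of the 110 mg/L group, and that of ALD5 at 200 mg/L was lost when only the 6 arrays of its experiment were fitted. ACS1 at 200 mg/L passed only without 200 mg/L array 3. ALD4 and ALD6 passed at both doses under all 22 alternatives. The alternatives reuse the arrays on which the genes were chosen, so they describe the calls and are not evidence for them.

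**Figure D3:**
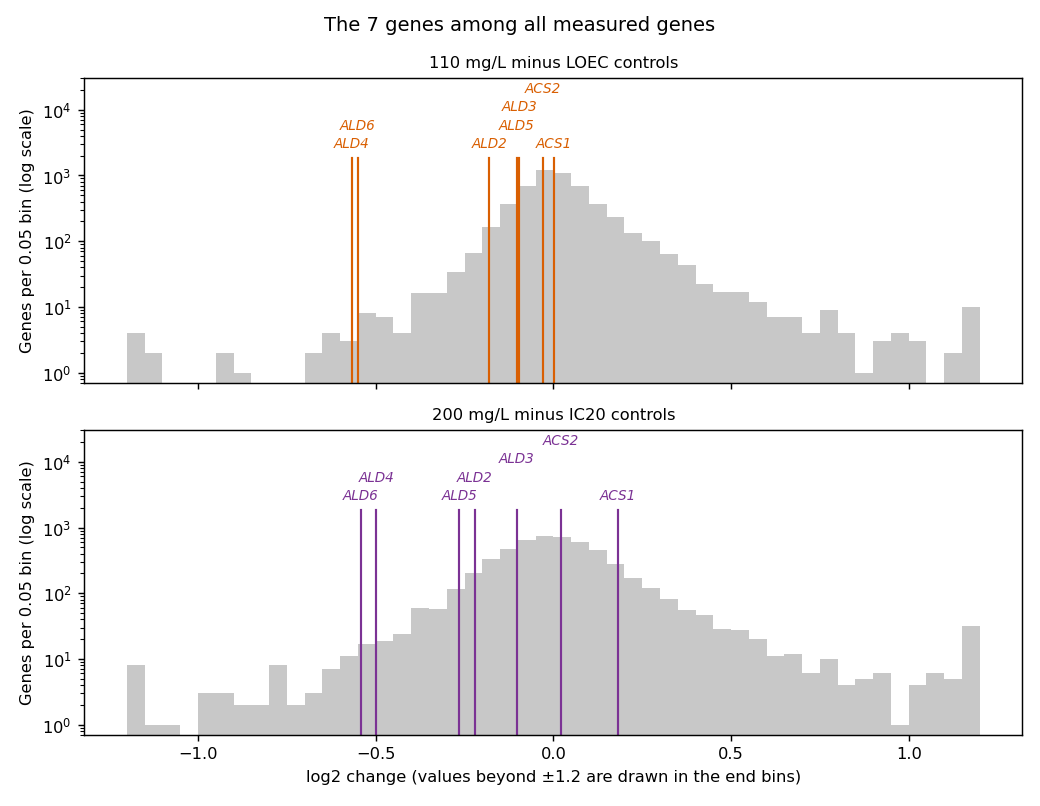
Histograms of the log2 change of all 5449 genes at 110 mg/L (upper panel) and 200 mg/L (lower panel), with the number of genes per bin on a log axis and the 7 genes marked by lines. ALD4 and ALD6 stand in the left tail at both doses, at -0.57 and -0.55 and at -0.50 and -0.54, while ACS2 stands near the middle.

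The higher dose did not come with a larger change of ALD6 or ALD4. The response at 200 mg/L minus that at 110 mg/L was 0.0096 for ALD6 (SE 0.0706, 95% interval -0.15 to 0.17) and 0.069 for ALD4 (SE 0.124, 95% interval -0.20 to 0.34). It was -0.040 for ALD2, -0.0061 for ALD3, -0.16 for ALD5, 0.18 for ACS1 and 0.049 for ACS2, and all 7 intervals include 0. None of the 7 was called for this difference, where 1.25% of all genes were. For ALD5 the interval ran from -0.35 to 0.021 and for ACS1 from -0.041 to 0.40. Over the table, 57 genes were called lower at both doses, and 42 of them had the lower value at 200 mg/L, with medians of -0.50 at 200 mg/L and -0.35 at 110 mg/L. ALD2, ALD4 and ALD6 are among the 57, which are 1.05% of all genes. The comparison of doses is also one between experiments.

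The untreated cultures of the 2 experiments give a comparison that holds no alachlor array, and it was tested. None of the 7 genes passed between IC20 controls and LOEC controls (limma, 0 of 7, with 0 at an unadjusted p under 0.05), where 0.789% of all genes passed. ALD6 averaged 17508 ± 944 in the IC20 controls and 16595 ± 426 in the LOEC controls (SD, n = 3 each), a log2 difference of 0.076 (SE 0.050, limma adjusted p = 0.534). ALD4 averaged 3475 ± 422 in the IC20 controls and 3176 ± 224 in the LOEC controls, a log2 difference of 0.13 (SE 0.0877, limma adjusted p = 0.565). ALD2, at -0.074 (SE 0.0359, limma adjusted p = 0.380), was the one member whose control groups did not overlap, and 10.3% of all genes had all IC20 controls below all LOEC controls. The count over all genes was 43, and it was 5 to 22 without any 1 array of the LOEC controls or IC20 controls or without 110 mg/L array 1 or 2. The differences of ALD3, ALD5, ACS1 and ACS2 were -0.12, 0.098, -0.017 and -0.031. The control arrays in this test are the same as those in the alachlor comparisons. The controls of ALD4, ALD5 and ALD6 were highest on array 3 in both experiments, at 3426, 9987 and 17086 in the LOEC experiment and 3827, 10774 and 18593 in the IC20 experiment.

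The order of the 4 levels was the same for ALD4 and ALD6: lowest at 110 mg/L, then 200 mg/L, then the LOEC controls, then the IC20 controls. Both alachlor groups lay below both control groups, while within each of these pairs ALD6 overlapped. ALD4 also overlapped between the control groups, and its arrays at 200 mg/L, 2276 to 2541, lay above those at 110 mg/L, 2043 to 2206. By the root mean square difference of log2 intensities over the 12 arrays, each centred on the gene's own mean, ALD6 was the nearest of 5448 genes to ALD4, at 0.0923 against a median of 0.312. Next came YDR222W at 0.117 and QDR2, a multidrug exporter of the plasma membrane, at 0.127. Seen from ALD6, the nearest was ECI1, a peroxisomal enoyl-CoA isomerase of fatty acid oxidation, at 0.0871, then YDR222W at 0.0886, and ALD4 came next at 0.0923. The measure follows level shifts between groups, which many genes share, and it is a description. ALD5 ranked 61 and ALD2 212 by likeness to ALD4, ALD3 1330, ACS2 1446 and ACS1 4058.

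Genes next to the 7 on their chromosomes, taken by position from the RefSeq gene table (assembly R64) and outside the rule for named genes, were measured on the same arrays. Of 11 such measured genes 1 rose and 0 fell at 110 mg/L, and 3 rose and 0 fell at 200 mg/L. Over all genes 3.05% rose and 1.21% fell at 110 mg/L, and 10.0% rose and 7.80% fell at 200 mg/L, and nothing particular to the neighbours is read from so few. VTC1, a subunit of the vacuolar polyphosphate polymerase that lies beside ALD5, rose at both doses (log2 changes 0.15 and 0.19, limma adjusted p = 0.0376 and 0.00398). MFM1, a mitochondrial magnesium transporter gene beside ALD6, rose at 200 mg/L (log2 change 0.41, limma adjusted p = 0.00194). YLR152C, beside ACS2, rose at 200 mg/L (log2 change 0.38, limma adjusted p = 0.0389). NUD1 and GDH1, on either side of ALD4, had log2 changes of 0.14 and 0.029 at 110 mg/L and -0.030 and 0.044 at 200 mg/L that did not pass.

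The steps before and after acetaldehyde oxidation were covered by 9 lists of 73 genes, all measured. At 110 mg/L 4 rose and 0 fell, 5.48% of the lists against 4.26% of all genes. At 200 mg/L 17 rose and 2 fell, 26.0% of the lists against 17.8% of all genes. The lists were chosen with earlier results of these data known. These shares are therefore given for scale, and the adjusted p-values of list genes describe these arrays and are no independent support. Without LOEC control array 1 or 2 or 110 mg/L array 1 or 2, 2 of the lists' genes were called at 110 mg/L. The median log2 changes of the lists were 0.035 and 0.048. Of these genes 8 read on average at or below the level of the deleted loci, among them the glyoxylate and gluconeogenesis genes MLS1, FBP1 and SFC1 and the regulators CAT8 and SIP4. On the way to acetaldehyde and ethanol, 0 of 3 pyruvate decarboxylases passed at either dose, with 1 at an unadjusted p under 0.05 at 110 mg/L and 0 at 200 mg/L. Of 6 alcohol dehydrogenases ADH5 alone passed. ADH5 averaged 14539 ± 303 at 110 mg/L, against 12739 ± 510 in the LOEC controls, and 16696 ± 243 at 200 mg/L, against 13192 ± 458 in the IC20 controls (SD, n = 3 each). It rose by log2 changes of 0.19 and 0.34 (SE 0.0427, limma adjusted p = 0.0320 and 0.000298). The first call was lost under 8 of 22 alternatives, among them without LOEC control array 1 or 2 and without any 1 of the 110 mg/L arrays.

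Entry of pyruvate into mitochondria is the other route to acetyl-CoA. Of 8 genes of the pyruvate carrier and pyruvate dehydrogenase, 1 rose at 110 mg/L and 2 at 200 mg/L, and 0 fell, with medians of -0.0054 and 0.065. MPC3, the carrier subunit used in respiratory growth, read 2552, 2459 and 2396 at 110 mg/L, against 1034, 1051 and 1206 in the LOEC controls, and 4495, 4262 and 4028 at 200 mg/L, against 967, 1012 and 1061 in the IC20 controls. Its log2 changes were 1.17 and 2.07 (SE 0.0663, limma adjusted p = 1.25e-06 and 4.22e-09). LPD1, the lipoamide dehydrogenase shared with other complexes, rose by 0.38 at 200 mg/L (SE 0.0501, limma adjusted p = 0.000425). At 110 mg/L it had 0.19 (limma adjusted p = 0.0600), which did not pass as reported but passed under 8 of 22 alternatives.

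Use and transport of acetate and acetyl units held the most calls: of 11 genes 2 rose at 110 mg/L and 6 at 200 mg/L, and 0 fell, with medians of 0.083 and 0.31. CRC1, the mitochondrial carnitine carrier, read 363, 346 and 302 at 110 mg/L, against 262, 268 and 295 in the LOEC controls, and 625, 613 and 631 at 200 mg/L, against 290, 264 and 281 in the IC20 controls. Its log2 changes were 0.29 and 1.16 (SE 0.0702, limma adjusted p = 0.0444 and 8.44e-07). The call at 110 mg/L was lost under 15 of 21 alternatives, among them without any 1 array other than LOEC control array 3, 110 mg/L array 3 and IC20 control array 2. YAT2, a carnitine acetyltransferase, rose by 0.31 and 0.71 (SE 0.0532, limma adjusted p = 0.00686 and 4.82e-06). The acetate transporter homologue ATO2 passed at 200 mg/L with readings of 215, 196 and 175, against 136, 122 and 134 in the IC20 controls, all under the highest reading of a deleted locus, and no fold is given. Another of the 6, ADY2, was as dim, at 154 on average at 200 mg/L against 106 in the IC20 controls. In the glyoxylate cycle and gluconeogenesis 0 of 7 passed at 110 mg/L, with 3 at an unadjusted p under 0.05, and 3 rose at 200 mg/L: PCK1 by 0.65, CIT2 by 0.25 and MDH2 by 0.23 (limma adjusted p = 0.00136, 0.00112 and 0.00209). PCK1 read not far above the level of the deleted loci, at 430 on average at 200 mg/L against 276 in the IC20 controls.

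Other sources of NADPH, beside ALD6, were covered by 10 genes, of which 0 passed at 110 mg/L, with 3 at an unadjusted p under 0.05, and IDP1, the mitochondrial NADP-dependent isocitrate dehydrogenase, rose by 0.20 at 200 mg/L (SE 0.0445, limma adjusted p = 0.0101). That call was lost with only the 6 arrays of the experiment, and when array 2 of the IC20 controls and array 1 at 200 mg/L were both left out. The median of the 10 genes was 0.069 at 110 mg/L and 0.077 at 200 mg/L, and the other 9 did not pass at 200 mg/L. Of 4 other aldehyde dehydrogenase genes 0 passed at 110 mg/L, with 0 at an unadjusted p under 0.05. UGA2, the succinate semialdehyde dehydrogenase, rose by 0.35 at 200 mg/L (SE 0.0718, limma adjusted p = 0.00672), and had -0.12 at 110 mg/L that did not pass.

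In pantothenate and coenzyme A synthesis, which ALD2 and ALD3 feed, 0 of 10 passed at 110 mg/L, with 2 at an unadjusted p under 0.05, and 2 rose at 200 mg/L. They were CAB2, the phosphopantothenoylcysteine synthetase (log2 change 0.51, SE 0.0639, limma adjusted p = 3e-04), and FMS1, the polyamine oxidase that supplies the aldehyde for beta-alanine (0.35, SE 0.0529, limma adjusted p = 0.00115). Of 14 regulators 0 passed at 110 mg/L, with 2 at an unadjusted p under 0.05, while 1 rose and 2 fell at 200 mg/L. MSN4, a stress transcription factor, fell (-0.65, SE 0.128, limma adjusted p = 0.00565), and so did MIG1, the glucose repressor (-0.35, SE 0.0390, limma adjusted p = 0.000121). ADR1, an activator of genes for ethanol and fatty acid use, rose (0.62, SE 0.148, limma adjusted p = 0.0156), a call lost without IC20 control array 2 and with only the 6 arrays of the experiment. MSN4 and ADR1 had log2 SDs of 0.205 to 0.329 in the IC20 experiment and 0.0881 to 0.108 in the LOEC experiment. Their shared SE therefore understates the spread at 200 mg/L.

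**Figure D4:**
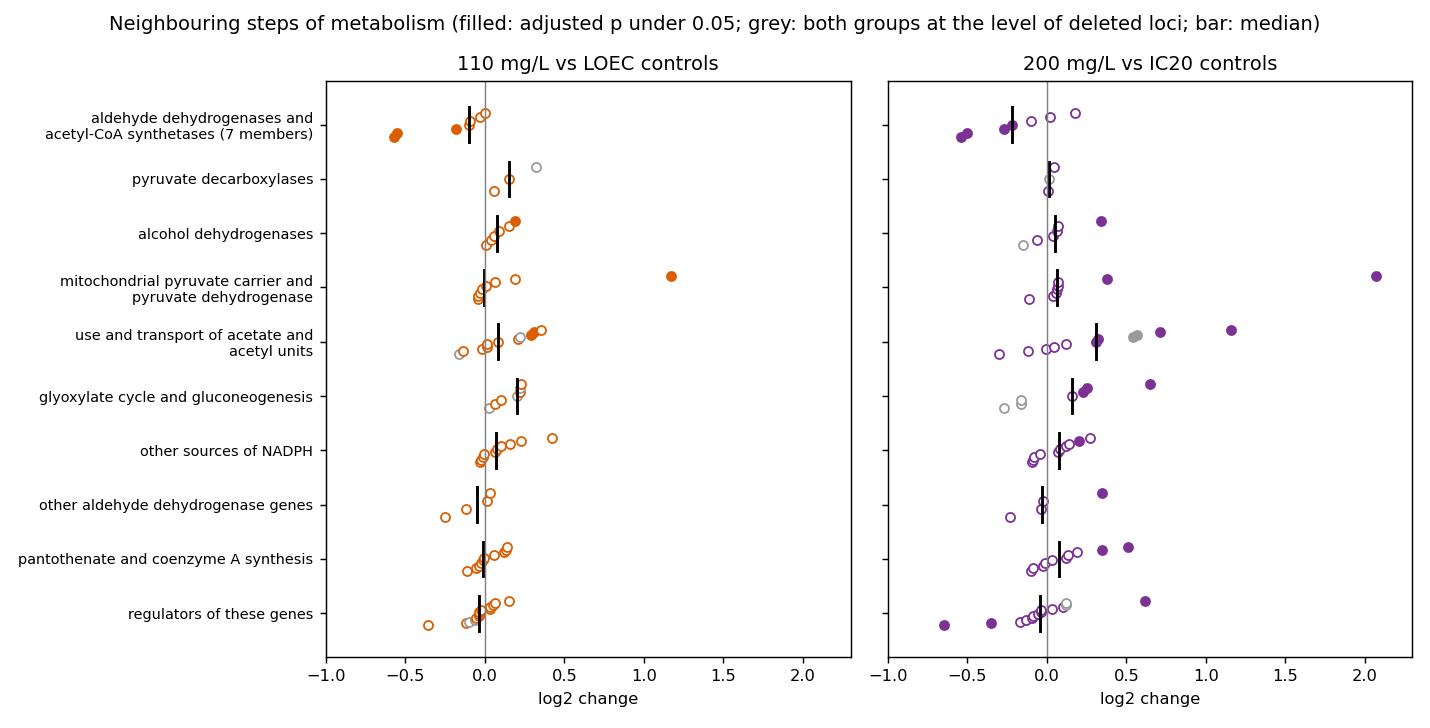
log2 change of each gene (points) in the 7 members and 9 lists of neighbouring steps at 110 mg/L (left) and 200 mg/L (right). Filled points passed the call, grey points have both groups at or under the level of the deleted loci, and bars are list medians. The called members lie left of 0 at both doses, and the called genes of the other lists lie right of 0 at both doses except MSN4 and MIG1 at 200 mg/L.

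Facts of the arrays that touch these values are few. Array medians lay between 1561.3 and 1613, and replicates correlated across genes at r of at least 0.993. The a-cell genes MFA1, MFA2, STE2, STE6, BAR1 and ASG7 read between 1408 and 24037, and of 4 alpha-cell genes MF(ALPHA)1 read 21 to 41, STE3 106 to 198, MF(ALPHA)2 163 to 377 and SAG1 1112 to 1831. The summed alpha-cell list read 1641 to 1772 at 110 mg/L, against 1583 to 1597 in the LOEC controls, and 1960 to 2213 at 200 mg/L, against 1549 to 1734 in the IC20 controls, and its part in the changes above was not tested. HIS3 read 6721 to 9552. Deviations from the group mean were related to coding length on the arrays of the IC20 experiment, with Spearman's rho, over genes, between -0.488 and 0.57. It lay between -0.0777 and 0.152 in the LOEC experiment, and genes are not independent. With the length trend removed, log2 changes at 200 mg/L were -0.55 for ALD6, -0.51 for ALD4, -0.28 for ALD5, -0.23 for ALD2, 0.15 for ACS1 and -0.0050 for ACS2.

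**Figure D5:**
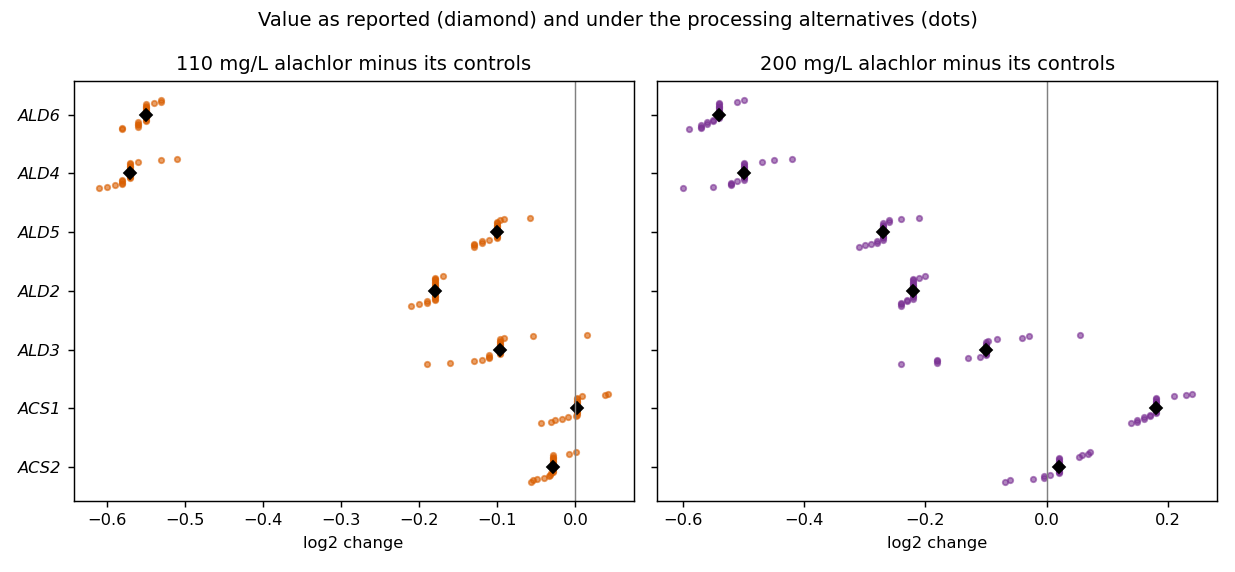
log2 change of the 7 genes as reported (diamonds) and under up to 22 alternatives of the processing (dots), at 110 mg/L (left) and 200 mg/L (right). ALD6 stayed between -0.58 and -0.53 at 110 mg/L and between -0.59 and -0.50 at 200 mg/L, and ALD3 had the widest range at both doses, -0.19 to 0.015 and -0.24 to 0.055.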

How the data were processed

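Total RNA of 12 cultures was labelled with a 3' in vitro transcription kit and hybridised to GeneChip Yeast Genome 2.0 arrays, per the labels' protocols. The deposited table holds 1 linear intensity per probe set and array, already summarised by the authors; the submitters' processing notes name Affymetrix Expression Console with no version, and the summarisation and normalisation are not given in the sources used here. Of 5716 probe sets 5498 carry 1 gene name, 0 several and 218 none. Where a gene had more than 1 (47 genes), its brightest probe set on average was used, which left out 49 and gave 5449 genes, all matched to RefSeq names.

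Values were taken to log2 with no pseudocount and fitted with limma 3.58.1 (lmFit and eBayes, R 4.3.3) with 4 group means, and p-values were Benjamini-Hochberg adjusted over all 5449 genes. An exact permutation test of 3 arrays against 3 cannot give a p below 0.1. A gene with both group means at or below 228.8 gets no fold. Replicates are biological per the labels, no 2 arrays had identical values, and depth has no meaning here: the number of arrays limits the precision.

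The 7 genes and the lists were chosen with earlier results of these data known. Named are the 7, per list up to 3 genes past the test with the largest change, and the 3 genes nearest to a member whose group means span at least 0.5. Alternatives covered scaling, dim genes, moderation, arrays fitted, the replicate number as a block, an offset of 16, coding length, probe sets and arrays left out.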

Additional observations from a re-analysis of the deposited data

Results flagged for a closer look

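Of the 15 named genes of the neighbouring steps whose group means lay above the level of the deleted loci, 4 were called by limma's test of the difference of responses (200 mg/L minus 110 mg/L). These genes were named for large changes at either dose on the same arrays, so their number is not set against the share over all genes. Dose and experiment cannot be told apart in this test. MPC3 differed by 0.90 (log2, adjusted p = 0.000531, 9.78e-05 to 0.00651 over the alternatives), and all 3 arrays at each dose lay above their controls. CRC1 differed by 0.87 (adjusted p = 0.00106, 0.00025 to 0.0117 over the alternatives). ATO2 read under the brightest deleted locus on every array, so no difference of responses is given for it. YAT2 differed by 0.40 (adjusted p = 0.0280, 0.0191 to 0.0966), and the call was lost under 10 of 20 alternatives. MIG1 differed by -0.29 (adjusted p = 0.0296, 0.0273 to 0.104), and the call was lost under 13 of 20 alternatives. The 7 aldehyde dehydrogenase and acetyl-CoA synthetase genes are outside these lists and so could not be among them. In the same test over all genes none of the 7 was called.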

How the results depend on the processing

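Of 306 values of the 7 genes at the 2 doses under alternatives, 305 stayed within 1 SD (the gene's pooled within-group SD of log2 intensity) of the value reported, and ALD2 at 110 mg/L moved to -0.21 with median centring. Some alternatives, such as another moderation or leaving out arrays of the other experiment, cannot alter a gene's log2 change. The count therefore depends on which alternatives were run and is no measure of robustness. Leaving out 1 array gave 2 to 3 called members at 110 mg/L, 4 to 5 at 200 mg/L and 0 between untreated cultures. Between untreated cultures 3 values turned sign, none called: ACS1 was 0.015 with the length trend removed and -0.068 to 0.019 with 1 array left out. ALD3 was 0.013 and ACS2 0.059 with array 2 of the IC20 controls and array 1 at 200 mg/L both left out, and they had ranges of -0.22 to 0.013 and -0.083 to 0.059 over single arrays left out. Calls not made as reported were gained at 110 mg/L by LPD1 under 8 alternatives, MSN4 under 3 and IDP1 under 2. ADR1 at 110 mg/L ranged from -0.089 to 0.0051. The other pathway genes called at 110 mg/L, 4 as reported, were 2 with median centring, 8 with the length trend removed, 7 without that pair of arrays and 2 to 6 with 1 array left out. Over all genes, leaving out 1 array gave 113 to 266 calls at 110 mg/L (232 as reported) and 713 to 973 at 200 mg/L (971, and 444 with only the 6 arrays). The difference of responses (68) had 39 to 68, and the comparison of untreated cultures (43) had 5 to 58, 20 without the 20% dimmest genes and 72 with the length trend removed. Fewer arrays entered some of these fits, and the causes of the changed counts were not tested. The labels number the replicates and do not say whether same-numbered arrays were paired. Deviations of same-numbered arrays correlated between -0.615 and 0.144, and no array correlated best with its own number. With 3 arrays a group, and deviations related to coding length in the IC20 experiment, this check cannot settle whether cultures were paired. With the replicate block 97 genes were called at 110 mg/L, 1 of them among the other pathway genes, and 519 genes were called at 200 mg/L. The block kept 2 called members at 110 mg/L, without ALD2, and the calls of ADH5, YAT2 and CRC1 at 110 mg/L and IDP1 at 200 mg/L were lost with it. The block was not run between untreated cultures, which come from separate experiments. ALD3 gave no value without the 20% dimmest genes. Dim probe sets such as that of ALD3 limit what could be seen.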
